A study of Mus musculus with 6 samples.

Results

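Peroxisomal transcripts were examined in whole livers of mice labelled as carrying a Cdkl3 knockout and of mice labelled wild type. The gene group comprised 37 named peroxisomal genes, chosen by symbol: 12 Pex genes of peroxisome biogenesis and 25 enzymes or transporters of the organelle. Of these 37, 36 had a row among the 24927 rows of the deposited tables, and Pex16 was not analysed here. The 3 libraries labelled KO had the genotype Cdkl3-/- and the 3 libraries labelled WT the genotype wild type. Cdkl3 encodes a member of the cyclin-dependent kinase-like family, and the labels describe its knockout as made in the liver. The promoter or Cre line behind it is not given in the sources used here. Both groups were labelled as male C57BL/6 mice aged 10 months on a chow diet, and total RNA of frozen liver was sequenced. Values are FPKM, a fragment count corrected for gene length and sequencing depth, as the authors deposited them.

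Peroxisomes are single-membrane organelles that shorten very long and branched fatty acids, break down hydrogen peroxide, start ether lipid synthesis and help to make bile acids. Their matrix proteins are made in the cytosol and imported whole by Pex proteins, which recognise a short targeting signal, dock at the membrane and are recycled by ubiquitination. Liver is rich in peroxisomes, and in rodents many of the fatty acid enzymes are induced through the nuclear receptor PPAR alpha.

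Several features of the libraries bear on every comparison. Between 24530000 and 39550000 reads were counted on genes in the libraries labelled KO, against 20460000 to 48610000 in those labelled WT. Cdkl3 itself measured 0.139 ± 0.0600 FPKM in the libraries labelled KO and 0.124 ± 0.0390 FPKM in those labelled WT (SD, n = 3 each), so its level did not separate the groups. Xist, the RNA of the inactive X chromosome, measured 0.0125 to 0.0273 FPKM in the libraries labelled KO and 192 to 292 FPKM in those labelled WT. The Y-linked gene Ddx3y measured 38.2 to 50.8 FPKM in the libraries labelled KO and 0.0694 to 0.207 FPKM in those labelled WT. All 6 libraries were labelled male. Expression of sex-linked genes thus followed the genotype label, and what belongs to sex and what to genotype cannot be told apart in any difference below. The hepatocyte markers Alb, Apob, Ttr, Tat and Tdo2 were at 16.1 FPKM or more in all 6 libraries, while Apoa1 and Ass1 were at 1.94 FPKM or less. Of these 5, 3 moved with the group: Alb averaged 1137 FPKM in the libraries labelled KO and 324 FPKM in those labelled WT, Ttr 119 FPKM in the libraries labelled KO and 24.3 FPKM in those labelled WT, and Tat 195 FPKM in the libraries labelled KO and 66.7 FPKM in those labelled WT, all without overlap. Apob and Tdo2 overlapped. Mitochondrial transcripts held 63.2% to 70.1% of FPKM in the libraries labelled KO and 70.5% to 73.9% in those labelled WT. Kidney markers stood apart in KO replicate 1: 14 of 16 with a row were highest there, and their summed level was 5412 FPKM, mostly Kap, against 6.00 and 7.53 FPKM in KO replicates 2 and 3 and 2.30 to 3.23 FPKM in the libraries labelled WT. Stellate cell markers summed to 21.2 to 32.1 FPKM in the libraries labelled KO and 76.1 to 130 FPKM in those labelled WT, and sinusoidal endothelial markers to 4.60 to 5.32 FPKM in the libraries labelled KO and 8.09 to 8.77 FPKM in those labelled WT. Lyve1 and Kdr carried the endothelial sum, while Clec4g, Pecam1 and Stab2, all under 1 FPKM, had higher means in the libraries labelled KO. The part of these cell types and of the mitochondrial share in the results was not tested. In whole tissue, fewer cells of a type and less RNA per cell cannot be told apart.

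Peroxisomal genes went both ways, with biogenesis and enzyme members on each side. Of the 36 members, 23 reached 1 FPKM in at least 3 libraries and were tested. At an adjusted p under 0.05, the libraries labelled KO were higher in 7 and lower in 4. Of the 7, Decr2, Amacr and Gnpat were under 1 FPKM in every WT library and passed the filter only through their KO values, so they could only come out higher. Nudt7 reached 1 FPKM in WT replicate 1 but in no other WT library, so it also needed its KO values to pass. Over all 5673 genes tested, 54.1% were called, 33.7% higher and 20.4% lower. The share of members called was 47.8%, which is near that background and is not a result about the group as a whole. Groups without overlap were found for 11 members, which are the called ones, against 63.9% of all genes tested. The median log2 difference was -0.05 over the 23 members and 0.12 over all genes tested. Differences are on the log2(FPKM + 1) scale, KO minus WT, which understates the change of low genes. Median centring lowered every difference by 0.28 and left the same 11 members called, with Abcd3 in addition.

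**Figure D1:**
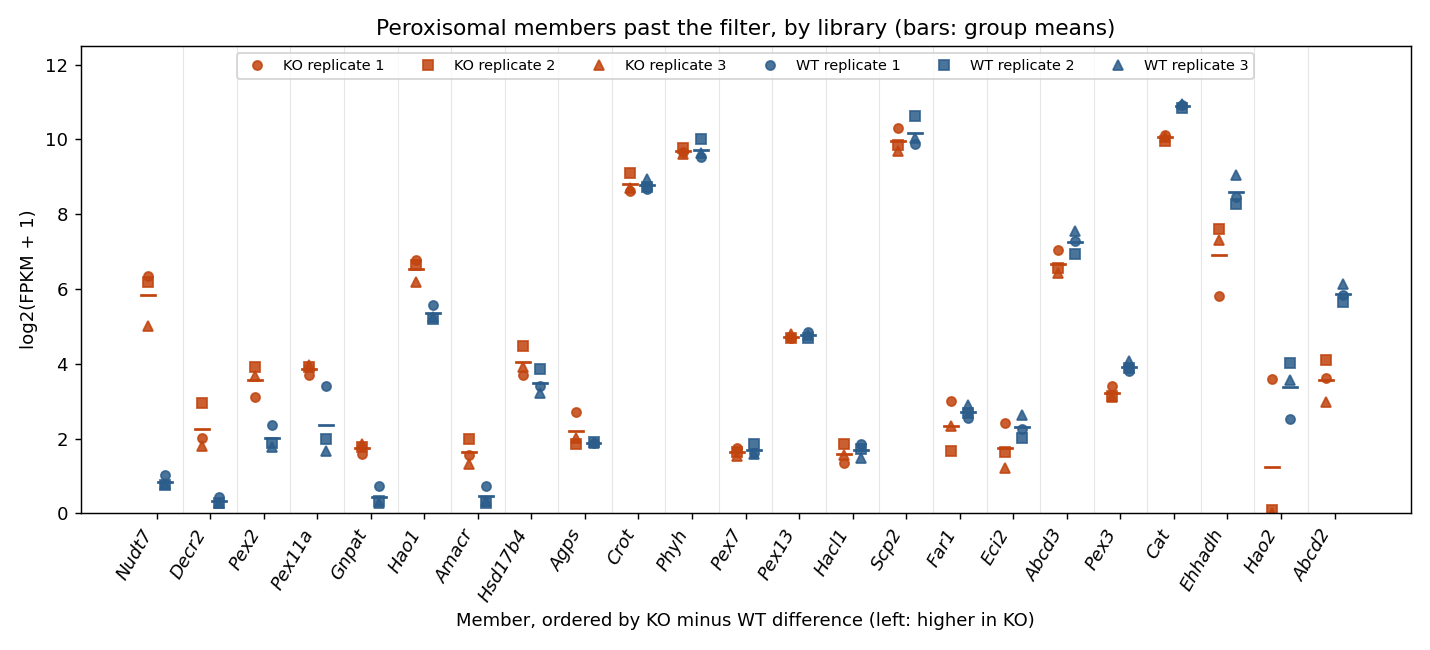
The 23 tested members are plotted by library on the log2(FPKM + 1) scale (vertical axis), with libraries labelled KO left of those labelled WT for each gene and bars at the group means. Nudt7 is at 31.3 FPKM or more in each library labelled KO and at 1.03 FPKM or less in each labelled WT, whereas Crot, Phyh, Pex7 and Pex13 overlap between the groups.

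The 6 most abundant members made up nearly all of the peroxisomal signal, and their total was lower in the libraries labelled KO. Summed over the 36 members, FPKM was 3544 to 4083 in the libraries labelled KO and 4701 to 5484 in those labelled WT. As a share of all FPKM outside mitochondrial transcripts this was 1.71% to 2.47% in the libraries labelled KO and 3.28% to 3.76% in those labelled WT, so neither scale showed an overlap. Cat, Scp2, Phyh, Crot, Ehhadh and Abcd3 together held 92.5% to 94.2% of the sum in the libraries labelled KO and 95.9% to 96.8% in those labelled WT. Cat alone held 25.5% to 30.5% in the libraries labelled KO and 33.6% to 41.0% in those labelled WT. These sums are descriptions and were not tested.

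The promoters of the 2 called members with the largest rises and the 2 with the largest falls, among those with a RefSeq promoter, are shown. Abcd2, the called member with the largest fall, had no promoter in this set and is not shown. Each is the 250 bases before the start in the GRCm38.p6 build, written on the strand of the gene, and Nudt7 has 2 annotated starts of which the first listed is shown. Capitals mark matches, on either strand, to the GC box GGGCGG, the CCAAT box CCAAT and the nuclear receptor half-site AGGTCA.
Nudt7 (chr8:114133368-114133617, plus strand): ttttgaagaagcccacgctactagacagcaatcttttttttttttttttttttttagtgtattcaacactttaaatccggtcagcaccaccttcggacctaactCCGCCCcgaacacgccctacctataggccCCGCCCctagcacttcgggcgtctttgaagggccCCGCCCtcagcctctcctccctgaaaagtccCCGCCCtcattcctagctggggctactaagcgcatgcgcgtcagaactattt
Decr2 (chr17:26090165-26090414, minus strand): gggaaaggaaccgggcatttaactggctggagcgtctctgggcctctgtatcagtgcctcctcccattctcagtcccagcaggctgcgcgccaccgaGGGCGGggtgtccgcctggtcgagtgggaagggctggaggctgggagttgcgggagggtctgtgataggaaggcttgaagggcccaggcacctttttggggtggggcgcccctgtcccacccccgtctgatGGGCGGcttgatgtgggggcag
Cat (chr2:103485154-103485403, minus strand): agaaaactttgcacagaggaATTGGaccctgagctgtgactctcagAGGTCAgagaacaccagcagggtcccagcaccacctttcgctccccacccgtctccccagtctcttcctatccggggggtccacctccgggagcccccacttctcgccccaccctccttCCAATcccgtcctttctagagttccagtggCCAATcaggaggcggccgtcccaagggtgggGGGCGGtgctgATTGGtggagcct
Ehhadh (chr16:21787835-21788084, minus strand): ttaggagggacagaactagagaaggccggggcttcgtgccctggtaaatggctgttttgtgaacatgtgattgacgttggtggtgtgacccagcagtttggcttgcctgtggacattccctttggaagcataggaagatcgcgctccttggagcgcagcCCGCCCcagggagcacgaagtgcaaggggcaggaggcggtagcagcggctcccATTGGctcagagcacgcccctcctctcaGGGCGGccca
Nudt7 held 4 GC boxes, all on the opposite strand, between 146 and 47 bases before the start. Decr2 held 2, Ehhadh 2 and Cat 1. Cat also held 4 CCAAT boxes and 1 half-site, which lay 204 to 199 bases before the start, and Ehhadh held 1 CCAAT box. Of 40 promoters of 32 members, 60.0% held the GC box, 37.5% CCAAT and 10.0% the half-site, against 32.7%, 33.8% and 14.0% of all 32851 promoters of this length. The direct repeat AGGTCANAGGTCA, the form that PPAR alpha binds, was in 0 of the 40 and in 0.0335% of all. A match is only a description of these letters in this window.

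Biogenesis members differed in direction. Of 11 with a row, 5 were tested: Pex2 and Pex11a were higher, Pex3 was lower, and Pex7 and Pex13 were not called. That is 60.0% called, against 54.1% of all genes tested. Among the 18 enzyme and transporter members tested, 5 were higher and 3 lower (44.4% called). Neither share is a result about its class. Pex2, a ubiquitin ligase of the import complex, measured 7.63, 14.0 and 11.8 FPKM in the libraries labelled KO and 4.13, 2.66 and 2.43 FPKM in those labelled WT. Every KO value lay above every WT value. The log2 difference was 1.56 (SE 0.25, adjusted p = 0.0016), a 3.63-fold ratio of mean FPKM.

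Pex11a, which drives elongation and division of peroxisomes, measured 12.1, 14.0 and 14.6 FPKM in the libraries labelled KO and 9.63, 2.96 and 2.17 FPKM in those labelled WT. The groups did not overlap, but WT replicate 1 stood close to the KO values. The log2 difference was 1.51 (SE 0.42, adjusted p = 0.018). This call was lost without WT replicate 2 (adjusted p = 0.056) or KO replicate 2 (0.065), without WT replicate 3 when the same genes were kept (0.052), without the filter (0.058), and after each library's dependence on GC content and exon length had been subtracted (0.065).

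Pex3, which inserts membrane proteins into new peroxisomes, measured 9.55, 7.87 and 7.58 FPKM in the libraries labelled KO and 12.9, 13.9 and 15.7 FPKM in those labelled WT. All 3 KO values were below all 3 WT values, and the log2 difference was -0.70 (SE 0.16, adjusted p = 0.0081). Its transcript has 38.5% GC, and after the trend on GC content and length was removed the difference was -0.17 (adjusted p = 0.39). Pex13, a docking protein with 38.6% GC, measured 24.7, 24.6 and 26.9 FPKM in the libraries labelled KO and 28.0, 24.6 and 26.2 FPKM in those labelled WT. The ranges overlapped, with a log2 difference of -0.05 (95% interval -0.39 to 0.29, adjusted p = 0.8). After the same removal it turned to 0.48 (adjusted p = 0.035), so the Pex3 call and the Pex13 direction depend on whether the joint trend on GC content and exon length is removed. Pex7, the receptor for the PTS2 signal that brings in thiolase, measured 2.37, 2.10 and 1.88 FPKM in the libraries labelled KO and 2.05, 2.63 and 2.01 FPKM in those labelled WT, with a log2 difference of -0.05 (95% interval -0.40 to 0.30).

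Catalase, the enzyme that breaks down hydrogen peroxide, was lower and glycolate oxidase higher in the libraries labelled KO. Cat measured 1103, 1002 and 1080 FPKM in the libraries labelled KO and 1926, 1845 and 1979 FPKM in those labelled WT. The 3 libraries of each group lay close together, and the groups were far apart, with a log2 difference of -0.85 (SE 0.17, adjusted p = 0.0043). The mean was 1.81-fold higher in the libraries labelled WT, with 70711 to 103611 reads behind each KO value and 105820 to 234373 behind each WT value. Hao1, the hydroxyacid oxidase that turns glycolate into glyoxylate and releases hydrogen peroxide, measured 108, 99.6 and 72.3 FPKM in the libraries labelled KO and 46.9, 35.7 and 37.4 FPKM in those labelled WT. The groups did not overlap, with a log2 difference of 1.19 (SE 0.21, adjusted p = 0.0021). Both calls held under every alternative tried.

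Hao2, a hydroxyacid oxidase of longer chains that is also abundant in rodent kidney, had the widest spread of all members. It measured 11, 0.0740 and 0 FPKM in the libraries labelled KO and 4.78, 15.1 and 10.9 FPKM in those labelled WT. KO replicate 1 was among the WT values, while KO replicates 2 and 3 held 6 reads and 0 reads. The log2 difference was -2.14 (95% interval -4.87 to 0.59, adjusted p = 0.15). Without KO replicate 1, the library that held the kidney transcripts, it was -3.32 (adjusted p = 0.0018). Kap, an androgen-regulated kidney transcript, was at 5264 FPKM in KO replicate 1, and Akr1c21 and Slc7a13, markers of the kidney tubule, were at 83.1 and 35.3 FPKM there and at 0.926 FPKM or less in the other libraries. The part of kidney RNA in the Hao2 value was not tested.

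**Figure D2:**
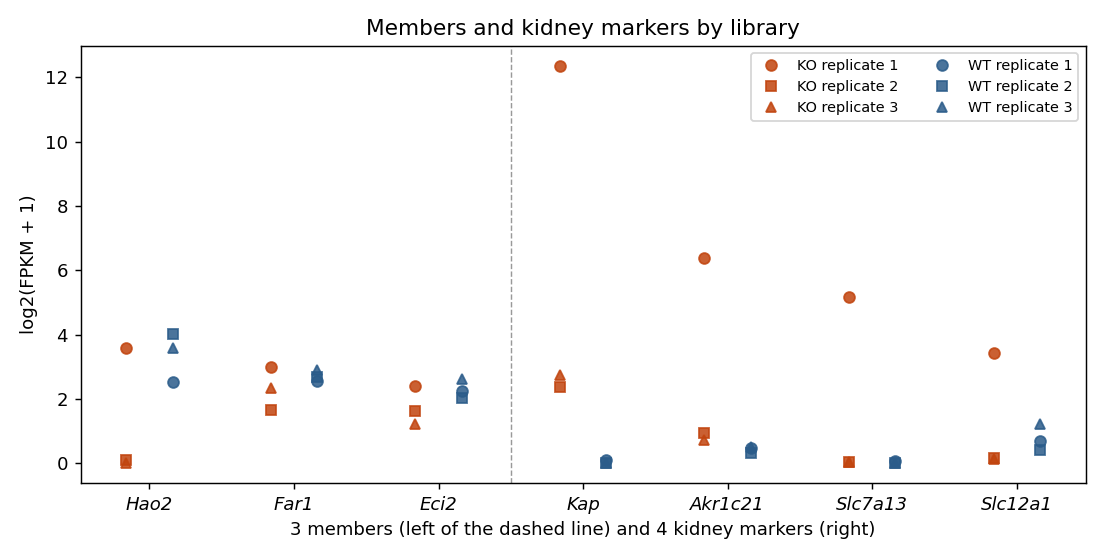
Hao2, Far1 and Eci2 are plotted beside 4 kidney markers by library on the log2(FPKM + 1) scale (vertical axis), with libraries labelled KO left of those labelled WT. KO replicate 1 (circle) is at 11 FPKM for Hao2 and at 5264 FPKM for Kap, and the other libraries labelled KO are at or near 0 for Hao2.

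Beta-oxidation enzymes were called in both directions, but those called higher, Decr2 and Amacr, passed the filter only through their KO values. They could thus only come out higher. Ehhadh, the bifunctional hydratase and dehydrogenase of straight-chain substrates, measured 55.3, 192 and 157 FPKM in the libraries labelled KO and 350, 309 and 530 FPKM in those labelled WT. Each KO value lay below each WT value, and the lowest was KO replicate 1. The log2 difference was -1.69 (SE 0.46, adjusted p = 0.017). The call was lost without WT replicate 3 (-1.46, adjusted p = 0.058) and without the filter (adjusted p = 0.056).

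Decr2, the reductase that prepares polyunsaturated chains, measured 3.03, 6.72 and 2.47 FPKM in the libraries labelled KO and 0.356, 0.217 and 0.203 FPKM in those labelled WT. The groups were apart by a log2 difference of 1.92 (SE 0.28, adjusted p = 0.001). Amacr, the racemase that lets branched-chain and bile acid intermediates enter oxidation, measured 1.96, 2.99 and 1.52 FPKM in the libraries labelled KO and 0.660, 0.221 and 0.263 FPKM in those labelled WT. Its log2 difference was 1.18 (SE 0.21, adjusted p = 0.0022).

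Other enzymes of the same pathways were not called. Hsd17b4, the bifunctional enzyme of branched chains, measured 12.0, 21.4 and 14.2 FPKM in the libraries labelled KO and 9.67, 13.5 and 8.27 FPKM in those labelled WT (log2 difference 0.54, 95% interval -0.04 to 1.13). Scp2, whose long form is the thiolase of branched chains, was the second most abundant member, with 1276, 918 and 826 FPKM in the libraries labelled KO and 938, 1571 and 1054 FPKM in those labelled WT (-0.23, 95% interval -0.85 to 0.39). Both genes overlapped between groups. Eci2, an isomerase of unsaturated chains, measured 4.33, 2.12 and 1.34 FPKM in the libraries labelled KO and 3.80, 3.07 and 5.17 FPKM in those labelled WT. KO replicate 1 was again the highest KO library, and the log2 difference was -0.54 with it (adjusted p = 0.17) and -0.87 without it (adjusted p = 0.021). For alpha-oxidation, which removes a carbon from branched acids such as phytanic acid, Phyh measured 816, 879 and 775 FPKM in the libraries labelled KO and 736, 1038 and 788 FPKM in those labelled WT. Its log2 difference was -0.04 (95% interval -0.51 to 0.43), and that of the lyase Hacl1, at 1.55 to 2.64 FPKM in the libraries labelled KO and 1.79 to 2.65 FPKM in those labelled WT, was -0.10 (95% interval -0.53 to 0.33).

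Of the importers of fatty acyl-CoA, Abcd2 was lower and Abcd3 was not called. Abcd2, a half-transporter of very long and polyunsaturated acyl-CoA on the minus strand of chromosome 15 (GRCm38, GENCODE M21, 91145871 to 91191799), measured 11.4, 16.3 and 6.92 FPKM in the libraries labelled KO and 56.7, 49.1 and 69.3 FPKM in those labelled WT. Its log2 difference of -2.30 (SE 0.29, adjusted p = 5.3e-04) was the largest fall among called members, a mean 5.06-fold higher in the libraries labelled WT. Abcd3, the related transporter of long and branched chains, measured 132, 92.8 and 85.3 FPKM in the libraries labelled KO and 155, 122 and 187 FPKM in those labelled WT. Here the groups overlapped, with a log2 difference of -0.58 (95% interval -1.13 to -0.03, adjusted p = 0.07). It was called after median centring (-0.86, adjusted p = 0.017) and without KO replicate 1 (-0.77, adjusted p = 0.032). The ratio of Abcd2 to Abcd3, both per length, was 0.0811 to 0.175 in the libraries labelled KO and 0.367 to 0.402 in those labelled WT.

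**Figure D3:**
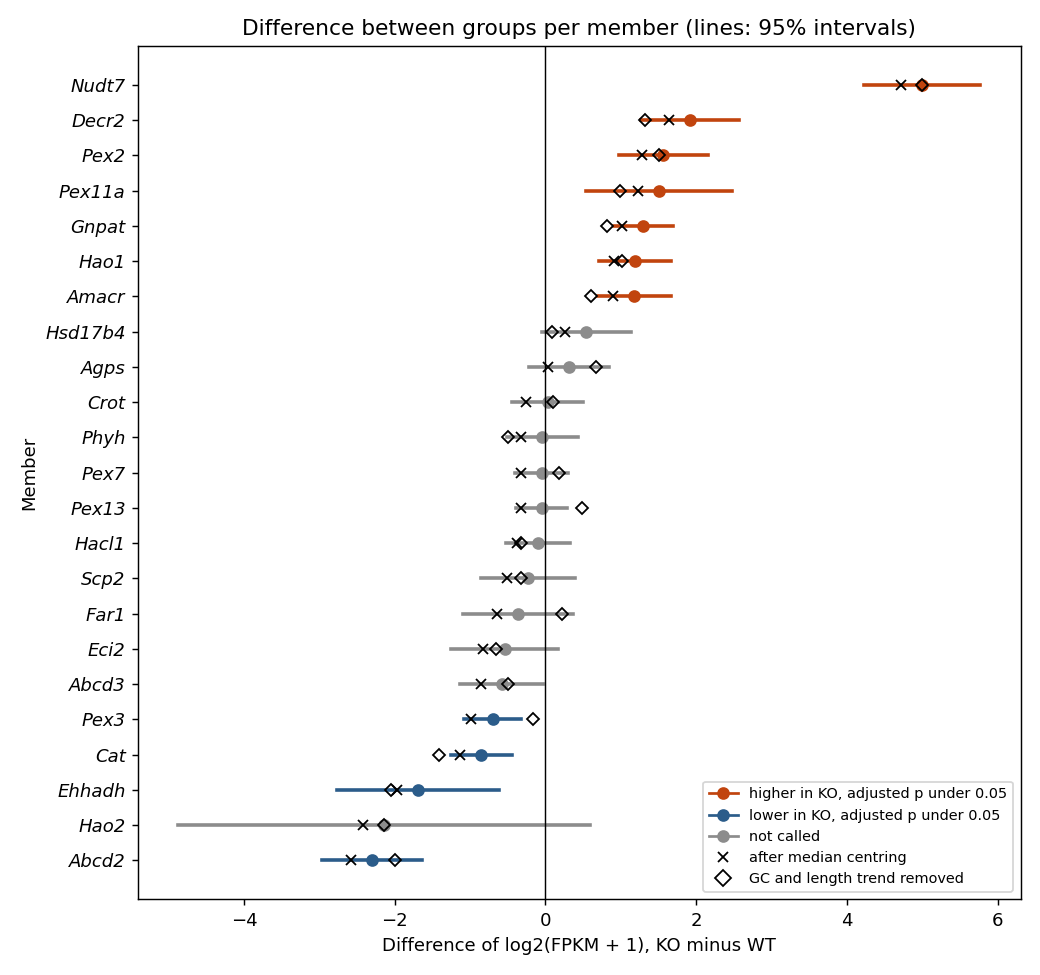
The difference of log2(FPKM + 1), KO minus WT (horizontal axis), is shown for the 23 tested members with 95% intervals from limma, and with the values after median centring (crosses) and after removal of the trend on GC content and length (diamonds). Nudt7 lies at 5.0 and Abcd2 at -2.30, and the diamonds of Pex3 and Pex13 lie at -0.17 and 0.48.

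Nudt7 showed the largest difference of all members. This enzyme splits coenzyme A and acyl-CoA inside the peroxisome, and is encoded on chromosome 8, plus strand (GRCm38, GENCODE M21, 114133557 to 114154739). It measured 81.1, 71.4 and 31.3 FPKM in the libraries labelled KO and 1.03, 0.692 and 0.713 FPKM in those labelled WT. These values rest on 11171, 15861 and 4693 reads in the libraries labelled KO and 209, 189 and 82 reads in those labelled WT. The mean was 75.4-fold higher, and the log2 difference was 5.0 (SE 0.34, adjusted p = 7.2e-05), with alternatives between 4.71 and 5.98. Of the WT libraries only replicate 1 reached 1 FPKM, so Nudt7 needed its KO values to pass the filter. In filtered fits it could thus hardly have come out lower. Without the filter it was called higher as well (adjusted p = 0.0017). Acyltransferases release shortened chains to carnitine. Of these, Crot, for medium chains, measured 392, 548 and 412 FPKM in the libraries labelled KO and 404, 424 and 491 FPKM in those labelled WT. Its log2 difference was 0.03 (95% interval -0.44 to 0.50), and Crat, for acetyl groups, was under the filter at 0.271 FPKM or less in each library.

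Of the ether lipid enzymes, which make plasmalogen precursors, only Gnpat was called. Gnpat, the acyltransferase of the first step, measured 2.00, 2.40 and 2.63 FPKM in the libraries labelled KO and 0.658, 0.247 and 0.204 FPKM in those labelled WT. The log2 difference was 1.30 (SE 0.17, adjusted p = 6.2e-04), a 6.34-fold ratio of mean FPKM. Gnpat was under 1 FPKM in every WT library and passed the filter only through its KO values, so it could only come out higher. Agps, the synthase that follows it, measured 5.57, 2.64 and 3.03 FPKM in the libraries labelled KO and 2.67, 2.75 and 2.66 FPKM in those labelled WT (log2 difference 0.31, 95% interval -0.22 to 0.84). It was called after the trend on GC content and length was removed (0.67, adjusted p = 0.03). Far1, the reductase that supplies the fatty alcohol, measured 7.05, 2.17 and 4.03 FPKM in the libraries labelled KO and 4.84, 5.42 and 6.43 FPKM in those labelled WT. KO replicate 1 was the highest of all 6 libraries for both genes. Without it the log2 difference of Agps was 0.05 (adjusted p = 0.82). For Far1 the log2 difference was -0.37 with it (adjusted p = 0.35) and -0.71 without it (adjusted p = 0.049).

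The 13 members under the filter shared a high GC content. Their longest transcripts held 52% (Acox2) to 63.0% (Pex6) GC, whereas those of the 23 tested members held 36.9% (Far1) to 50.1% (Gnpat), with no overlap. Over all genes with an annotated transcript, 37.1% passed the filter below 45% GC, 27.7% from 45% to under 50%, 17.3% from 50% to under 52%, 10.8% from 52% to under 55% and 3.92% from 55% upwards. These bins were chosen after the values were seen. A low value in these tables need not mean low expression in the liver. Ech1, an isomerase of unsaturated chains, and Pex10, the ligase partner of Pex2, were listed at 0 in all 6 libraries.

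The thiolases Acaa1a and Acaa1b, near-identical copies between which reads can be split, measured 0.0170 to 0.126 and 0.0572 to 0.291 FPKM in the libraries labelled KO, and at most 0.0189 and 0.0747 FPKM in those labelled WT. The D-amino acid oxidase Dao, also abundant in kidney, had 1 read in KO replicate 1 and 0 in the other libraries. Pex14, a docking protein, had 0 to 5 reads in the libraries labelled KO and 0 to 10 in those labelled WT, and Pex11g, of the division family, had 0 to 19 reads in the libraries labelled KO and 0 to 4 in those labelled WT. These counts are too low to compare levels.

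In a fit without the filter, in which 20.5% of 20529 genes were called, 3 of the 13 were called, all higher. Ech1 and Pex10, at 0 in every library, were not in this fit. Of all genes in it, 3171 were called higher and 1045 lower. Pex5, the receptor for the PTS1 signal of most matrix enzymes, measured 0.610, 0.968 and 0.721 FPKM in the libraries labelled KO and 0.296, 0.172 and 0.0992 FPKM in those labelled WT (log2 difference 0.57, adjusted p = 0.019). Acox3, an oxidase of branched chains, measured 0.149, 0.145 and 0.0650 FPKM in the libraries labelled KO and 0.0241, 0.00357 and 0 FPKM in those labelled WT (0.15, adjusted p = 0.036). Its WT values rest on 10, 2 and 0 reads, too few to compare levels. Pex6, an ATPase that extracts used receptors, had 3, 7 and 4 reads in the libraries labelled KO and 0 in each labelled WT (0.06, adjusted p = 0.042), which is as few as in the genes above and too few to compare levels. Pex26, which anchors Pex6, was at 0.544 to 0.700 FPKM in the libraries labelled KO and 0.131 to 0.357 FPKM in those labelled WT (adjusted p = 0.05). Acox2, the oxidase of bile acid intermediates, overlapped between groups at 0.661 to 1.29 FPKM in the libraries labelled KO and 0.158 to 0.794 FPKM in those labelled WT, and it was the member nearest below the filter.

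**Figure D4:**
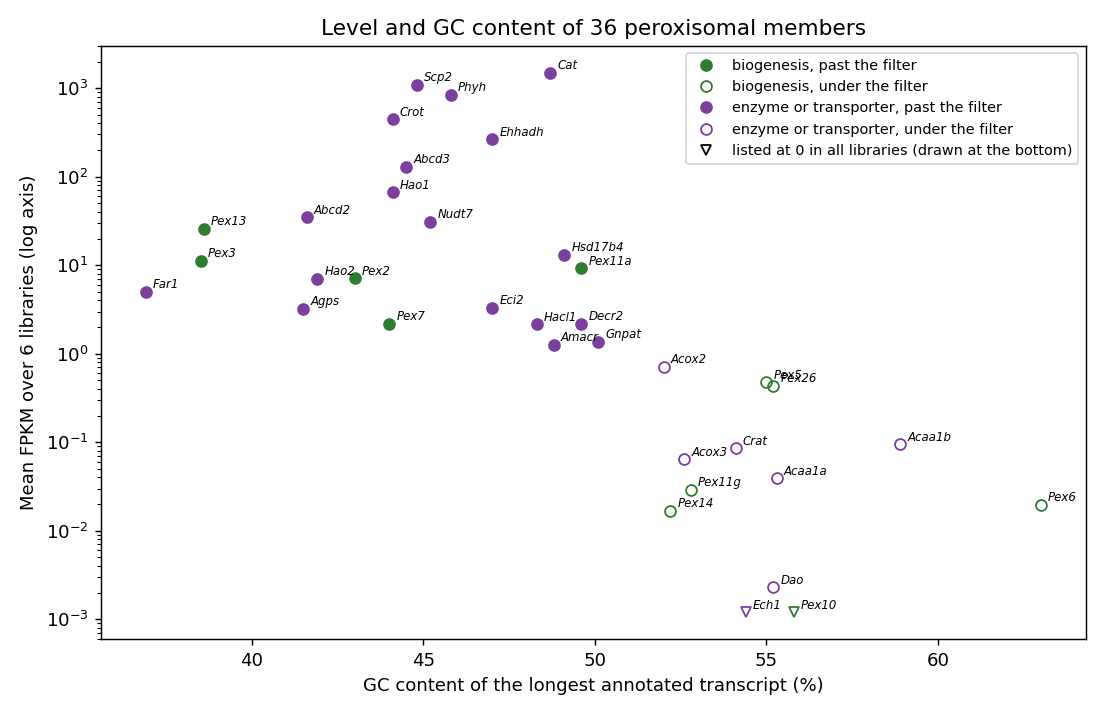
The mean FPKM over 6 libraries (vertical log axis) is plotted against the GC content of the longest annotated transcript (horizontal axis, percent) for the 36 members. Filled symbols passed the filter and lie at or below 50.1% GC, and open symbols lie at or above 52%, with Ech1 and Pex10 drawn at the bottom because they are listed at 0.

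Peroxisomal genes outside the 37 also went both ways. Of 46 such genes, 39 had a usable row and 25 were tested, of which 12 were higher and 7 lower (76.0% called, against 54.1% of all genes tested), with a median log2 difference of 0.55 against 0.12 over all genes tested. The split was 8 higher and 7 lower after median centring and 7 each after rescaling to FPKM outside mitochondrial transcripts. This list was chosen with earlier results of these data known, so its called share may follow from the choice. Ephx2, the epoxide hydrolase shared by cytosol and peroxisomes, measured 26.2, 53.8 and 26.3 FPKM in the libraries labelled KO and 2.17, 0.870 and 0.846 FPKM in those labelled WT (log2 difference 3.95, adjusted p = 1.3e-04). Nudt19, a further peroxisomal CoA hydrolase, measured 41.3, 24.5 and 19.2 FPKM in the libraries labelled KO and 4.31, 1.20 and 1.62 FPKM in those labelled WT (3.16, adjusted p = 5.2e-04). Nudt7 and Nudt19 were thus both higher, whereas the thioesterases Acot4 and Acot12, given below, were lower. Acot8, a further thioesterase on the list, was under the filter at 0.0380 FPKM or less in each library. Where in the cell the listed enzymes act was not tested. Acad11 and Dhrs4 were higher too, by 1.41 and 0.92 on the log2(FPKM + 1) scale. Dhrs4 was at 0.237 FPKM or less in every WT library, so it passed the filter only through its KO values, as did Xdh, also among the higher genes, and neither could have been called lower.

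The largest fall on that list was in Acot4, a thioesterase of dicarboxylic acyl-CoA, which measured 21.6, 24.3 and 19.8 FPKM in the libraries labelled KO and 110, 64.9 and 121 FPKM in those labelled WT (log2 difference -2.07, adjusted p = 4.3e-04). Hsdl2, the fission GTPase Dnm1l and the thioesterase Acot12 were lower by log2 differences of -0.99, -0.81 and -0.91.

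A list of PPAR alpha, its partners Rxra and Ppargc1a and genes it controls outside the peroxisome was split as well. Of 28 listed, 18 were tested, with 8 higher and 7 lower (83.3% called, against 54.1% of all genes tested), and 6 higher and 8 lower after median centring. The median log2 difference was -0.16, against 0.12 over all genes tested. Since this list too was chosen with earlier results known, its called share may follow from the choice. Among those lower were Vnn1, a pantetheinase of coenzyme A breakdown, at 40.7, 35.2 and 21 FPKM in the libraries labelled KO and 145, 163 and 215 FPKM in those labelled WT (log2 difference -2.43, adjusted p = 3.5e-04), and the fatty acid hydroxylases Cyp4a14 and Cyp4a10 and the carnitine palmitoyltransferase Cpt1a (log2 differences -3.77, -3.13 and -0.95). Etfdh, Cpt2, Hadhb and Fabp1, which serve mitochondrial oxidation and fatty acid binding, were higher, by log2 differences of 2.74, 2.07, 1.68 and 3.14. Cpt2, at 3.44 to 5.90 FPKM in the libraries labelled KO and 0.163 to 0.476 FPKM in those labelled WT, and Acaa2, also among the higher genes, passed the filter only through their KO values. Ppara itself measured 2.47, 1.56 and 1.43 FPKM in the libraries labelled KO and 1.35, 0.198 and 0.331 FPKM in those labelled WT (0.84, adjusted p = 0.029), and is counted among the higher genes of the list, as its coactivator Ppargc1a is among the lower. Ppara is named here as the receptor and not by the rule for named genes. Its call was lost without the filter (adjusted p = 0.089), and WT replicate 1 stood close to the KO values. That was the only WT library in which Ppara reached 1 FPKM, so it needed its KO values to pass the filter.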

How the data were processed

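RNA-seq of 6 mouse livers was analysed, 3 labelled Cdkl3-/- (KO) and 3 labelled wild type (WT). Per the file headers, the authors deposited 1 FPKM value per row, and the submitters' processing notes name HISAT2 and GRCm39. Counting tool, annotation and versions: not given in the sources used here. Annotation was matched by symbol, and coordinates are on GRCm38. In 1 table, KO replicate 3, the header code differs from the sample title, and the label was used. Identifier and symbol named the same gene in 0 of 24927 rows. FPKM times exon length (GENCODE M21, by symbol) gave whole reads within 0.15 for 98.94% of values up to 40 reads, against 30.58% by identifier. Symbols were therefore used, and the chromosome 1 block (1787 rows, 35.94% whole) and 119 rows without a symbol were left out. The same steps gave the reads per gene and library. They count reads and not molecules.

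FPKM are not counts, so log2(FPKM + 1) was fitted with limma 3.58.1 (R 4.3.3, trend and robust moderation, labelled genotype only) over the 5673 genes that reached 1 FPKM in 3 or more libraries. P-values were adjusted by Benjamini-Hochberg over all of these, with a threshold of 0.05. The fit was also run on simulated data in which few genes changed. That setting differs from these data, where 54.1% of genes were called, so no error rate is drawn from it. Separate animals per library are not stated in the labels, and the p-values reflect only how these libraries vary, which may be technical. Alternatives were a pseudocount of 0.1, no filter, at least 10 FPKM, no robust moderation, a replicate block, median centring, rescaling outside mitochondrial transcripts, subtraction of a loess fit of each library on GC content and exon length, and leaving out each library. Leaving out libraries with the tested genes kept was added after seeing the data. Members and gene lists were chosen with earlier results of these data known. All members with a row are named, and from each other list up to 4 genes per direction with the smallest adjusted p and no overlap between groups. Promoters are from RefSeq (GRCm38.p6), and 32 members matched. Other steps used Python 3.11.15.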

Additional observations from a re-analysis of the deposited data

How the results depend on the processing

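Of 11 called members, 8 (Pex2, Abcd2, Amacr, Decr2, Nudt7, Cat, Hao1 and Gnpat) kept call and direction in every alternative that tested them. Of these, Amacr, Decr2 and Gnpat passed the filter only through their KO values, so in filtered fits they could only come out higher. Nudt7 reached 1 FPKM in no WT library but replicate 1, and also needed its KO values to pass. Over the 23 tested members, 418 of 442 alternative values kept their side of the threshold, 16 of these with the other sign, all in members without a call in either fit. Of the rest, 11 lost the call, 12 gained one, and Pex13 turned to 0.48 after removal of the trend on GC content and length. The cause was not tested. That removal left 0 biogenesis members lower. With no filter 3171 of all genes were higher. At 10 FPKM or more, where fewer genes were tested, 468 were higher and 559 lower, and the higher ones included 1 biogenesis member, 2 enzyme members, 7 other peroxisomal genes and 4 genes of the PPAR alpha list. Lower genes numbered 1891 after median centring and 1785 after rescaling outside mitochondrial transcripts, which also left 7 other peroxisomal genes higher; the higher genes were then 1443 and 1315. Leaving out 1 library gave 966 to 1957 genes higher (966 without KO replicate 2, 1058 without KO replicate 3 and 1241 without KO replicate 1, with fewer than the 5673 genes tested) and 727 to 1039 lower (727 without WT replicate 3), and up to 1959 and 1123 with the tested genes kept. It gave 1 to 2 biogenesis members higher (1 without WT replicate 2 or KO replicate 2, and without WT replicate 3 with the tested genes kept), 2 to 5 enzyme members higher and 2 to 7 lower, 6 to 13 other peroxisomal genes higher (6 without KO replicate 2), and 4 to 8 genes of the PPAR alpha list higher (4 without KO replicate 2, 5 without KO replicate 1 or 3). Without KO replicate 1 the 7 lower enzyme members included Hao2, Eci2, Far1 and Abcd3. Decr2, Amacr and Gnpat were under the filter without any of the KO replicates, and were called in each such fit with the tested genes kept.

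The replicate numbers did not pair the samples: same-numbered libraries deviated together with correlations of -0.049, -0.096 and 0.181. With the replicate block 1740 genes were higher and 1031 lower, and Hsd17b4 was called (0.54, adjusted p = 0.045). Several members under the filter rest on fewer than 10 reads per library, too few to compare levels.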
